A study of Mus musculus with 8 samples.

Results

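The account covers 5 genes of the surface of early blood progenitors, Kit, Cd34, Adgrg1, Cd93 and Angpt1, of 23091 genes listed in the deposited tables. They were chosen by name and not by a threshold on their values. Each was read in the wells that held at least 1000 transcripts, as its level, as the share of wells with a transcript, and as its presence in the same wells as the other 4 genes, with wells that held a Cdh5 or Plvap transcript (2 endothelial genes) set apart. The embryos were wild type mice of the C57BL/6N strain at embryonic day 9.5 (E9.5), and the tissue was the extraembryonic yolk sac. Cells were stained for CD45 and CD11b, and CD45-positive cells were sorted into well plates. There were 4 libraries labelled as A1 and A2 cells, the early macrophage precursors of the yolk sac, and 4 labelled as EMP cells (erythromyeloid progenitors), which the labels give as run alongside but left out of the published work. A1 and A2 cells share libraries without a label per well, so they cannot be told apart by label. All 8 libraries carry the same genotype, strain, age and batch letter, and no treatment is given. Whether Kit protein was part of the gates is not stated in the labels, so a difference in Kit between the groups cannot be told apart from one set by the sort.

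Kit is the receptor tyrosine kinase for stem cell factor (Kitl) and is found on erythromyeloid progenitors, mast cells and blood stem cells. CD34 is a sialomucin of blood progenitors and of endothelium, and both genes are shared by the haemogenic endothelium from which yolk sac progenitors bud. Adgrg1 encodes the adhesion receptor GPR56 of blood stem and progenitor cells, Cd93 a C-type lectin receptor of endothelium and early progenitors, and Angpt1 the ligand angiopoietin-1, which activates the Tie2 receptor (Tek) of endothelium.

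RefSeq promoter entries on GRCm38.p6 were matched for 3 of the 5 genes (Kit, Cd34 and Adgrg1). The 250 bases before the start are shown because these members were often found in the same EMP wells, and because GATA, ETS and RUNX factors act at many blood progenitor genes. The windows are chr5:75574737-75574986 for Kit, chr1:194938571-194938820 for Cd34 and chr8:94976859-94977108 for Adgrg1, all on the plus strand. Capitals mark an ETS word, and all text runs 5′ to 3′.
Kit: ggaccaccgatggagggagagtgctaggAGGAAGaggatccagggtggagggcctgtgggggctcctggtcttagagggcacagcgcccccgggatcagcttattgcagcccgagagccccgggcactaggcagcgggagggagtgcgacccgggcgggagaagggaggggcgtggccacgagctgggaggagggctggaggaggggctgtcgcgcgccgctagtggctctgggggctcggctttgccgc
Cd34: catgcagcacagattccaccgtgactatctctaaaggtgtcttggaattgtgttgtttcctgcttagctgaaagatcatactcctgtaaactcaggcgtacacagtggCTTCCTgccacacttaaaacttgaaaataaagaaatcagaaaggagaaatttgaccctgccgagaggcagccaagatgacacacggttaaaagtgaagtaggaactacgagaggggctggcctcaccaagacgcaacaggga
Adgrg1: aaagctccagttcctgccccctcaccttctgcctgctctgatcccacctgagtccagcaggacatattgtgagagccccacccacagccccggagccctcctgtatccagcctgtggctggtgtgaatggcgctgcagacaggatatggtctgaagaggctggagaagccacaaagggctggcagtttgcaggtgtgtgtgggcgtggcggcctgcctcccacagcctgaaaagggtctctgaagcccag
Words were searched on both strands. For GATA factors the first word was AGATAA, the other being TGATAA. For ETS factors the first word was CCGGAA, the other being AGGAAG. The RUNX word was TGNGGT, while that of E-box factors was CANNTG, which is not capitalised. Kit held 1 ETS word at position -222 from the start, and Cd34 held 1 on the minus strand at -142. The Adgrg1 window held no GATA, ETS or RUNX word and 2 E-boxes, and a second Adgrg1 entry at chr8:94984149-94984398 held 1 E-box. A second Kit entry begins 4 bases further on and held the same ETS word. Of 32851 mouse promoter windows of this length, 16.6% held a GATA word, 38.2% an ETS word, 40.1% a RUNX word and 66.2% an E-box. A match describes letters only, and its absence says nothing of a factor.

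Of 1536 wells, 1223 were kept, 568 of 768 for A1/A2 and 655 of 768 for EMP, and every library uses the same set of well numbers. Kept wells held a median of 6153 transcripts (A1/A2) and 20368 transcripts (EMP). EMP library 2 stood apart from the other EMP libraries in marker content: 14 endoderm genes summed to 25575 transcripts per 1000000 (CPM) there against 16639 to 18870 in the others, and 15 endothelial genes to 288 against 544 to 600. The endothelial list summed to 120 to 154 CPM over the A1/A2 libraries, against 288 to 600 CPM for EMP, and the macrophage list (9 of 10 genes listed) to 742 to 1041 CPM, against 51.1 to 87.9 CPM. No listed gene of these 3 lists was at 0 in either group, and the part of these cell types in the members' differences was not tested. Wells where at least 2% of transcripts came from the endoderm list numbered 97 (A1/A2) and 229 (EMP), and they are called endoderm-rich wells. The labels do not say that libraries came from separate animals, so p-values measure the spread between libraries, which may be technical.

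Kit, Adgrg1, Cd93 and Angpt1 were lower in the A1/A2 libraries than in the EMP libraries, by between -2.18 and -1.63 on the log2 scale, and Cd34 did not pass the test. In sums of each library's kept wells, 4 of 5 members were called lower and 0 higher, where 15.4% of the 11144 genes tested were called lower and 32.8% in either direction. All 5 passed the filter on low counts. The members' median log2 change was -1.73, against -0.02 over all genes tested. Sums over wells cannot tell fewer cells of a type from less RNA per cell.

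Kit, the receptor, stood at 11.8, 11.6, 14.7 and 10.9 CPM in A1/A2 libraries 1 to 4 and at 63.1, 33.4, 66.1 and 58.4 CPM in EMP libraries 1 to 4. Every EMP library was above every A1/A2 library, with EMP library 2 the lowest of its group. The log2 change (A1/A2 minus EMP) was -2.18 ± 0.22 (SE, 4 libraries a group; edgeR quasi-likelihood test, Benjamini-Hochberg adjusted p = 3.84e-05). Adgrg1 was at 27.5, 10.5, 26.1 and 26.6 CPM in A1/A2 libraries 1 to 4, against 83.5, 46.5, 82.8 and 94.8 CPM for EMP libraries 1 to 4. Again the groups did not overlap, and library 2 was the lowest of both groups (log2 change -1.78 ± 0.30, edgeR adjusted p = 0.00214). Cd93 was at 9.83, 11.9, 28.6 and 10.9 CPM in A1/A2 libraries 1 to 4, against 57.2, 25.1, 48.3 and 56.7 CPM for EMP libraries 1 to 4. Here the groups overlapped, because A1/A2 library 3 lay above EMP library 2, and the change still passed the test (log2 change -1.63 ± 0.37, edgeR adjusted p = 0.00923).

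Angpt1, the ligand among receptors, was at 9.44, 6.37, 11.4 and 6.57 CPM in A1/A2 libraries 1 to 4, against 36.4, 14.2, 30.2 and 29.6 CPM for EMP libraries 1 to 4. The groups did not overlap (log2 change -1.73 ± 0.30, edgeR adjusted p = 0.00175). Cd34 was at 96.7, 47.7, 73.8 and 66.5 CPM in A1/A2 libraries 1 to 4, against 103, 39.3, 93.5 and 113 CPM for EMP libraries 1 to 4. These ranges overlapped, library 2 was the lowest of each group, and the log2 change of -0.30 ± 0.33 did not pass (edgeR adjusted p = 0.518). Leaving out any 1 of the 8 libraries kept the 4 calls and left Cd34 without one.

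**Figure D1:**
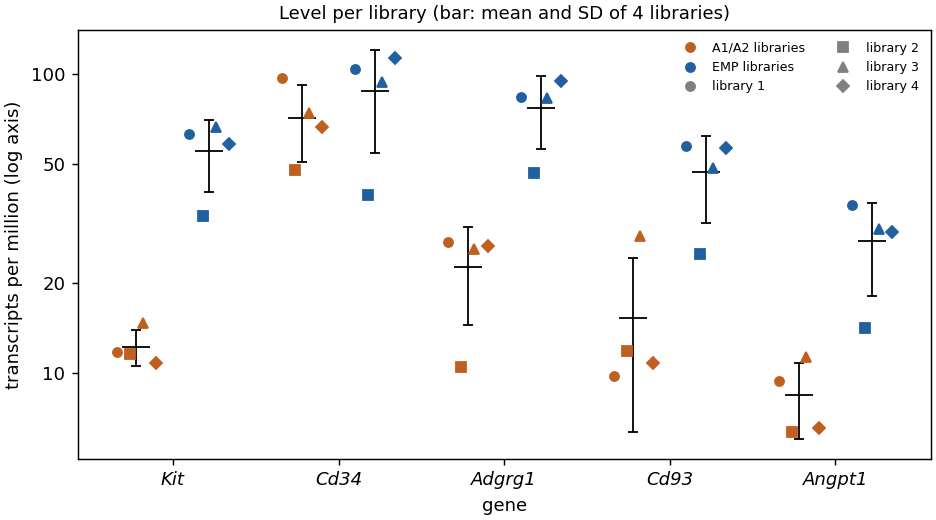
Level of each gene in CPM (log axis) in the 4 A1/A2 and 4 EMP libraries, with marker shape giving the library number and bars the mean and SD of 4 libraries. Kit is at 10.9 to 14.7 in the A1/A2 libraries and 33.4 to 66.1 in the EMP libraries, while Cd34 overlaps between the groups, and EMP library 2 is the lowest EMP library for all 5 genes.

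Which wells were summed changed 3 of these results, and Kit and Adgrg1 were called lower in each of the 2 well selections that follow. Without wells holding a Cdh5 or Plvap transcript, Kit (-1.20, edgeR adjusted p = 0.000656) and Adgrg1 (-1.28, edgeR adjusted p = 0.0153) were still called. This selection left 518 of 568 A1/A2 wells and 400 of 655 EMP wells, so it did not cut the groups alike. In the same wells Angpt1 was not called (-0.85, edgeR adjusted p = 0.0943), and the signs of Cd34 (1.001, edgeR adjusted p = 0.121) and Cd93 (0.27, edgeR adjusted p = 0.634) turned. Without endoderm-rich wells, a selection made after the data were seen, all 5 members were called lower in the A1/A2 libraries, Kit with a log2 change of -2.63 and Cd34 of -0.83 (edgeR adjusted p = 0.00163).

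At equal depth, Kit and Adgrg1 were found in a smaller share of A1/A2 wells than of EMP wells in every library. Each kept well was thinned to 1000 transcripts, which left out 0 wells. Kit was then found in 0.758, 0.699, 2.36 and 1.81% of wells in A1/A2 libraries 1 to 4, against 5.29, 5.65, 8.70 and 6.12% for EMP libraries 1 to 4. The means were 1.41% ± 0.816 and 6.44% ± 1.54 (SD, n = 4 each; two-sided exact permutation test p = 0.0286, the smallest that 4 against 4 can give). Adgrg1 was found in 1.38% ± 1.20 of A1/A2 wells and 7.36% ± 1.03 of EMP wells (SD, n = 4 each; exact permutation p = 0.0286). Of the 5 members, 2 were lower without overlap and 0 higher, where 2.77% of the 11144 genes were lower and 3.82% higher in that way. Without wells holding Cdh5 or Plvap, the Kit difference was -1.68 points and did not pass (exact permutation p = 0.143, n = 4 each), while that of Adgrg1 was -6.16 points (exact permutation p = 0.0286). Cdh5 and Plvap were read at full depth for this selection. It took out 176 of the 270 EMP wells with Kit at full depth, and 10 of the 73 such A1/A2 wells.

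The other 3 members overlapped between the groups at this depth. Cd34 was found in 6.82, 2.80, 3.94 and 7.83% of A1/A2 wells and in 7.06, 4.52, 8.70 and 9.52% of EMP wells (exact permutation p = 0.229, n = 4 each). Cd93 was found in 2.26% ± 2.21 and 5.60% ± 1.89, and Angpt1 in 0.765% ± 1.11 and 2.72% ± 0.631 (SD, n = 4 each; exact permutation p = 0.0857 for both). A1/A2 library 3 had the highest share of its group for Cd93 (5.51%) and for Angpt1 (2.36%), and Angpt1 was found in 4 A1/A2 wells in all. At 5000 transcripts, which kept 306 A1/A2 and 505 EMP wells, Angpt1 was found in a mean of 0.938% and 14.1% of wells over libraries and its libraries no longer overlapped (exact permutation p = 0.0286, n = 4 each).

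**Figure D2:**
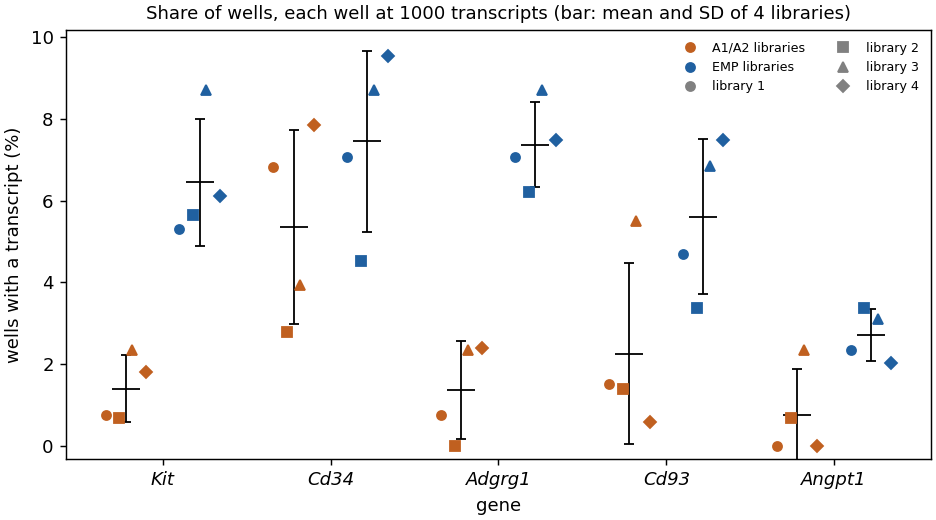
Share of wells with a transcript of each gene, each well thinned to 1000 transcripts, in the 4 A1/A2 and 4 EMP libraries, with marker shape giving the library number and bars the mean and SD. Kit and Adgrg1 separate the 2 groups, at no more than 2.41% against 5.29 to 8.70%, and Cd34 does not.

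Unthinned shares were larger: Kit was found in 73 of 568 A1/A2 wells and 270 of 655 EMP wells. Free RNA can leave a transcript in a well whose cell does not use the gene. The endoderm-rich class is a limit of 2% and not a cell type, since the endoderm list averaged 19537 CPM over whole EMP libraries. EMP wells with Kit and no Cdh5 or Plvap fell from 94 to 60 without it. Kit there can be the cell's own or free RNA, which was not tested. In endoderm-rich EMP wells 25.3% held a Kit transcript, at a median of 34792 transcripts per well. Of the other EMP wells 49.8% did, at a median of 14437. At 1000 transcripts the same shares were 0.437% and 9.62% for Kit, 0.873% and 10.8% for Cd34, and 2.18% and 7.28% for Cd93. Adgrg1 was at 3.49% and 9.39% and Angpt1 at 0.437% and 3.99%. In the A1/A2 libraries Kit was in 0 of 97 endoderm-rich wells, which allows a share of up to 3.09%, and in 1.70% of the other wells, so its share there was not above that limit.

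A well that held Kit usually held few copies in the A1/A2 libraries. Of the 73 A1/A2 wells with Kit, 52 had exactly 1 transcript and the highest well had 12, while among 270 EMP wells the median was 3 and the highest 26. The 173 A1/A2 wells with Cd34 had a median of 3 copies, and 28 of them had at least 10. Adgrg1 reached 43 transcripts in 1 A1/A2 well, above its highest EMP well of 24.

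Setting apart the wells with Cdh5 or Plvap showed where in the EMP libraries the members lay. Of the EMP wells, 94 held Kit without Cdh5 or Plvap (Kit-only), 79 held Cdh5 or Plvap without Kit, 176 held both, and 306 held neither. Wells with both carried 77.3% of all Kit transcripts of the EMP libraries, 76.2% of Cd34, 65.8% of Adgrg1, 61.6% of Cd93 and 72.8% of Angpt1, while holding 37.1% of all transcripts. Only the classes with Kit can hold Kit transcripts, so its share is partly fixed by how the classes were set. In the A1/A2 libraries the same class held 10 wells, 4.97% of all transcripts and 20.7% of Kit transcripts. Wells with neither held 49.4% of Cd34 and 70.7% of Cd93 transcripts there, against 61.5% of all transcripts. Depth differed between the classes: the median well held 27746 to 32589 transcripts in the Kit-only class over the 4 EMP libraries and 6153 to 15815 in the class with neither.

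Compared with EMP wells that held neither, Kit-only wells had more Cd34, Adgrg1 and Angpt1, and the difference of Cd93 did not pass. Counts were summed per library and class and fitted with library as a block, with Kit, Cdh5 and Plvap left out of the genes tested. Here 3 of 4 members were called higher and 0 lower, where 9.78% of 8999 genes tested were called higher and 8.45% lower. The members' median log2 change was 2.33, against 0.01 over all genes. The 2 classes also differed in other markers. The erythroid list of 10 genes summed to 645 to 2916 CPM in Kit-only wells and 513 to 17876 CPM in wells with neither. Of its 7 tested genes, 0 were called. The part of such wells in the members' differences was not tested. The classes were set by Kit itself, so its own level here is a description: 72.6, 40.6, 68.1 and 61.6 CPM in the Kit-only wells of EMP libraries 1 to 4.

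Cd34 was at 113, 25.5, 65.4 and 74.9 CPM in the Kit-only wells of EMP libraries 1 to 4 and at 10.9, 0.978, 6.42 and 25.3 CPM in the wells with neither. Each library moved the same way, although library 2 of the first class only just exceeded library 4 of the second (log2 change 2.84 ± 0.47, edgeR adjusted p = 0.00287). Adgrg1 was at 133, 57.1, 89.3 and 87.0 CPM against 15.4, 7.33, 22.8 and 21.9 CPM, without overlap (log2 change 2.46 ± 0.29, edgeR adjusted p = 0.000136). Angpt1 was at 51.4, 12.4, 19.5 and 23.1 CPM against 9.95, 1.47, 7.13 and 3.45 CPM, also without overlap (log2 change 2.20 ± 0.58, edgeR adjusted p = 0.0233). The Angpt1 call was lost without EMP library 2 (edgeR adjusted p = 0.0617) and without EMP library 4 (edgeR adjusted p = 0.116). Cd93 was at 24.2, 11.0, 13.3 and 23.1 CPM against 10.9, 6.36, 6.42 and 12.7 CPM (log2 change 0.94 ± 0.49, edgeR adjusted p = 0.200). It was called higher with wells thinned to 5000 transcripts (2.08, edgeR adjusted p = 0.00313), with classes set by at least 2 transcripts (2.15, edgeR adjusted p = 8.86e-06) and without the filter (edgeR adjusted p = 0.0128).

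Within the EMP libraries, Cd93 instead had its highest mean level in the endothelial wells. In wells with Cdh5 or Plvap and no Kit it was at 122, 40.7, 224 and 126.3 CPM in EMP libraries 1 to 4. All 4 values were above every value of the Kit-only wells and of the wells with neither. In library 2 the wells with both Kit and an endothelial gene were higher still, at 60.5 CPM. In the endothelial wells Cd93 was called higher than in wells with neither (log2 change 3.69 ± 0.37, edgeR adjusted p = 5.37e-05). It was called lower in Kit-only wells than in the endothelial wells (-2.75 ± 0.35, edgeR adjusted p = 0.000619). Both Cd93 calls held under every alternative run. Against wells with neither, Cd93 was the 1 of 4 members called higher, where 2.97% of genes were, and 3.4% were called in either direction.

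Adgrg1 took the other side. It was at 20.3, 35.5, 55.3 and 15.8 CPM in the endothelial wells, where each library's value lay below its own Kit-only wells (Kit-only minus endothelial 1.496 ± 0.33, edgeR adjusted p = 0.0231). That call was lost without EMP library 1 (1.03, edgeR adjusted p = 0.0968), without EMP library 4 (1.38, edgeR adjusted p = 0.108) and with wells thinned to 5000 transcripts (0.98, edgeR adjusted p = 0.086). In this direct comparison 1 member was higher and 1 lower of 4, where 1.29% of genes were called higher, 2.02% lower and 3.31% in either direction. Cd34 in endothelial wells was at 49.98, 28.9, 65.6 and 41.0 CPM, within the range of the Kit-only wells. It did not pass against either class (2.32 ± 0.58, edgeR adjusted p = 0.0652, over wells with neither, and 0.52 ± 0.42, edgeR adjusted p = 0.593, for Kit-only minus endothelial). Over wells with neither it passed without EMP library 2 (1.97, edgeR adjusted p = 0.00939) or 4 (3.04, edgeR adjusted p = 0.0344), with DESeq2 (adjusted p = 0.000376) and with classes set by at least 2 transcripts (2.66, edgeR adjusted p = 0.000894). Angpt1 was at 2.70, 5.26, 41.4 and 9.47 CPM, with library 3 above the rest, and passed in neither comparison (edgeR adjusted p = 0.681 and 0.378).

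**Figure D3:**
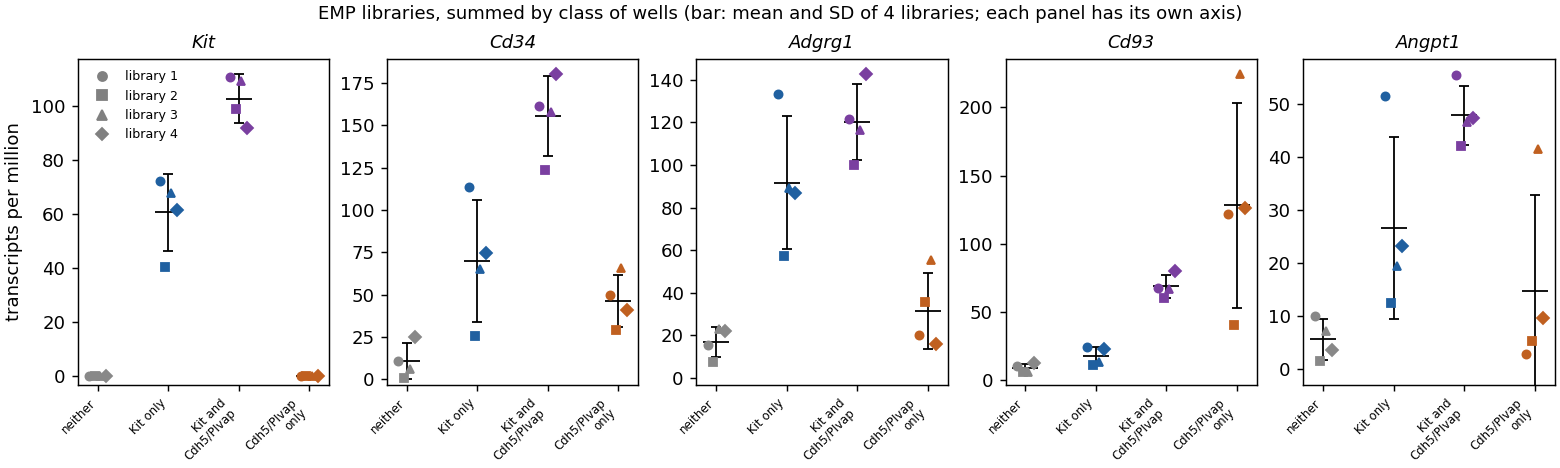
Level (CPM) of each gene in 4 classes of EMP wells, summed per library, with marker shape giving the library number and bars the mean and SD of 4 libraries (classes are set by Kit, Cdh5 and Plvap, and each panel has its own axis). Cd34 and Adgrg1 are highest where Kit is found and Cd93 reaches 224 in the wells with Cdh5 or Plvap and no Kit.

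Wells with both Kit and an endothelial gene had the highest mean level of 3 of the 4 other members. Cd34 was at 156 ± 23.6 CPM there (SD, n = 4 libraries), Adgrg1 at 120.2 ± 17.7, Angpt1 at 47.9 ± 5.59 and Cd93 at 68.8 ± 8.13 CPM. Kit itself was at 103 ± 9.04 CPM, against 60.7 ± 14.1 in the Kit-only wells. The contrast of Kit wells with and without Cdh5 or Plvap was added after these levels were seen, and 2 of 4 members were called higher, where 3.09% of genes were higher, 5.16% lower and 8.25% either. Cd93 rose by 1.98 ± 0.32 (log2, edgeR adjusted p = 0.00259) and Cd34 by 1.26 ± 0.28 (edgeR adjusted p = 0.022). The Cd34 call was lost with DESeq2 (adjusted p = 0.0629), with no library block (edgeR adjusted p = 0.122), in wells thinned to 5000 transcripts (0.59, edgeR adjusted p = 0.677), without endoderm-rich wells (0.62, edgeR adjusted p = 0.158), with classes set by at least 2 transcripts (0.27, edgeR adjusted p = 0.867), and without EMP library 3 or 4 (edgeR adjusted p = 0.154 and 0.0671). The Cd93 call was lost at 5000 transcripts (1.39, edgeR adjusted p = 0.103) and without EMP library 4 (2.06, edgeR adjusted p = 0.0684). Adgrg1 (0.43 ± 0.21, edgeR adjusted p = 0.239) and Angpt1 (0.96 ± 0.38, edgeR adjusted p = 0.159) did not pass.

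The Kit-only results changed with how wide the endothelial class was drawn. With Pecam1 and Kdr added to Cdh5 and Plvap, the Kit-only class fell from 94 to 41 wells, 8 to 13 in a library. Far fewer of all genes were then called in Kit-only minus neither wells (1640 before, the new count being given below). The part of the smaller number of wells in the lost calls was not tested. Over wells with neither, Cd34 (1.49, edgeR adjusted p = 0.812), Adgrg1 (1.06, edgeR adjusted p = 0.843) and Angpt1 (0.63, edgeR adjusted p = 0.935) were then not called. In the Kit-only minus endothelial comparison the signs of Cd34 (-0.67), Adgrg1 (-0.24) and Angpt1 (-0.31) turned, and none of the 3 was called. The endothelial list summed to 137 to 219 CPM in the Kit-only wells, 69 to 131 CPM in the wells with neither, 617 to 833 CPM in the wells with both and 491 to 2569 CPM in the endothelial wells, and 2 of its 15 genes, Cdh5 and Plvap, were at 0 in the first and second of these by construction. Their part in the members' levels was not tested.

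**Figure D4:**
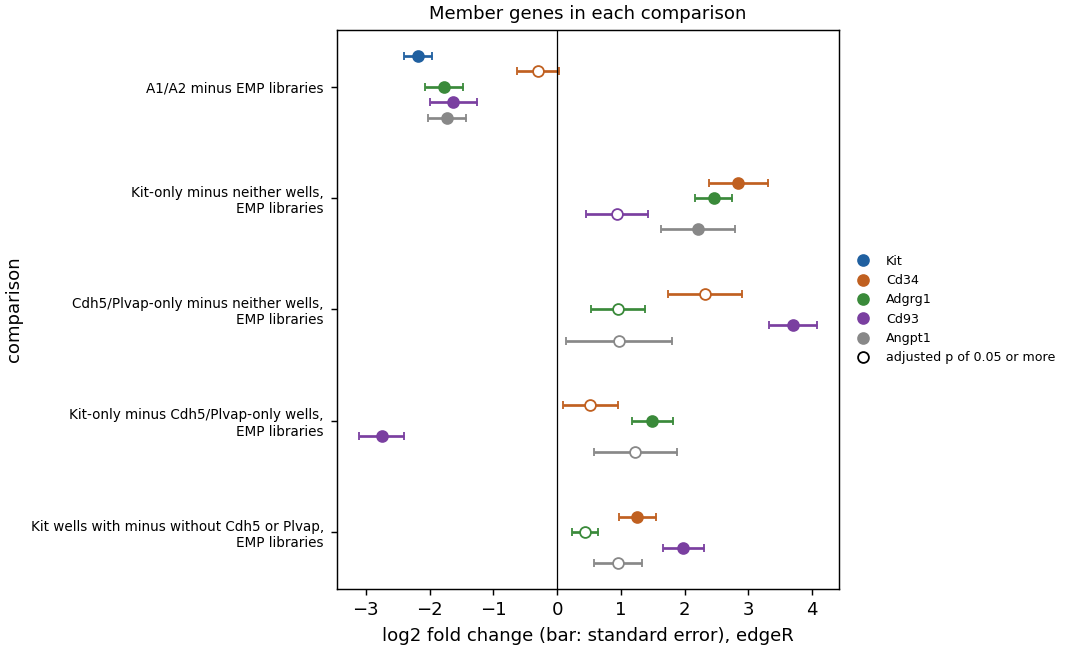
Log2 fold change with standard error of each member in the 5 comparisons (edgeR), where filled points passed an adjusted p of 0.05; Kit is left out where it sets the classes. Kit, Adgrg1, Cd93 and Angpt1 lie between -2.18 and -1.63 in the first comparison, and Cd93 runs opposite to Adgrg1 in Kit-only minus Cdh5/Plvap-only wells.

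In the A1/A2 libraries the classes were small: 63 Kit-only wells, 40 with an endothelial gene alone and 10 with both. Kit was at 40.5 to 44.1 CPM (here not TMM-scaled) in the Kit-only wells, from 25, 26, 32 and 36 transcripts in 11, 14, 16 and 22 wells. The class was set by Kit itself, so this level and its closeness between libraries are partly fixed by the selection. Cd34 was at 127, 37.5, 135 and 101 in these wells of libraries 1 to 4 and at 73.6, 46.2, 49.3 and 57.0 in wells with neither, so library 2 ran against the other 3. Adgrg1 was at 87.4, 9.79, 30.3 and 58.5 against 7.41, 9.59, 9.27 and 12.8, and in library 2 the classes nearly matched. The Kit-only sums of libraries 1 and 4 were 50 and 52 Adgrg1 transcripts. The single A1/A2 well with 43 lies in 1 of them, so that value rests mostly on 1 well. Cd93 was at 12.3, 11.9, 15.8 and 12.7 in the wells with an endothelial gene alone, from 3, 6, 3 and 5 transcripts. In wells with neither it was at 13.0, 12.3, 36.5 and 9.34, so the endothelial wells were higher in library 4 alone. No test was run on these classes.

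In the EMP libraries, each member was found more often in wells that held another member than in wells that did not. These wells differed in endothelial, endoderm and erythroid markers, and the part of that mixture in the co-detection was not tested. To set depth equal, wells of at least 5000 transcripts were thinned to that number, and wells are given as counts with no test since wells of a library are not replicates. Of 119 EMP wells with Kit, 60.5% also held Cd34, against 18.4% of the wells without Kit. Adgrg1 was in 49.6% and 16.6%, Cd93 in 36.1% and 11.9%, and Angpt1 in 31.1% and 8.55% of the same wells. The direction was the same in each of the 4 libraries for all 4 partners, and Cd34 was in 12 of 24 Kit wells of library 1, 16 of 32 of library 2, 22 of 34 of library 3 and 22 of 29 of library 4. Cd34 and Adgrg1 shared 69 wells, and Angpt1 wells held Cd34 in 64.3% of 70 cases. Cd93 and Angpt1 shared the fewest wells, 19, where 21.3% of Cd93 wells and 12.3% of the others held Angpt1.

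Many wells held none of the 5. No member was found in 245 of 505 EMP wells at this depth, 101 held 1, 77 held 2, 47 held 3, 27 held 4 and 8 held all 5. Cdh5 or Plvap, read at full depth, was found in 19.6% of the wells with no member, 59.4% with 1, 74.0% with 2, 70.2% with 3, 85.2% with 4 and 100% of the 8 wells with all 5. Among 306 A1/A2 wells, 62.7% held no member, 86 held 1, 23 held 2 and 5 held 3, and no well held more.

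Co-detection was also seen in EMP wells without Cdh5 or Plvap. These wells were split by Cdh5 and Plvap at full depth, while the members were read at 5000 transcripts. Among these 276 wells, 31 held Kit, and 45.2% of them held Cd34 against 8.16% of the wells without Kit. Adgrg1 was in 41.9% and 11.8%, and Cd93 in 16.1% and 3.27%. Among the 229 wells with Cdh5 or Plvap, 65.9% of the Kit wells and 36.2% of the others held Cd34. In the latter wells Cd93 was in 34.6% of the Adgrg1 wells and 32.4% of the others.

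In the A1/A2 libraries the pairs were fewer. At 5000 transcripts, 18 of 306 wells held Kit, and 6 of them held Cd34 (33.3% against 21.9% of the wells without Kit). Adgrg1 was in 6 of the 18 as well (33.3% against 8.33%), and Angpt1 was found in 3 A1/A2 wells in all. Cd34 was the most often found member there, in 69 wells, and Adgrg1 was in 18.8% of them against 7.17% of the others. Cd93 did not follow Cd34: 7.25% of Cd34 wells and 9.28% of the others held it.

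**Figure D5:**
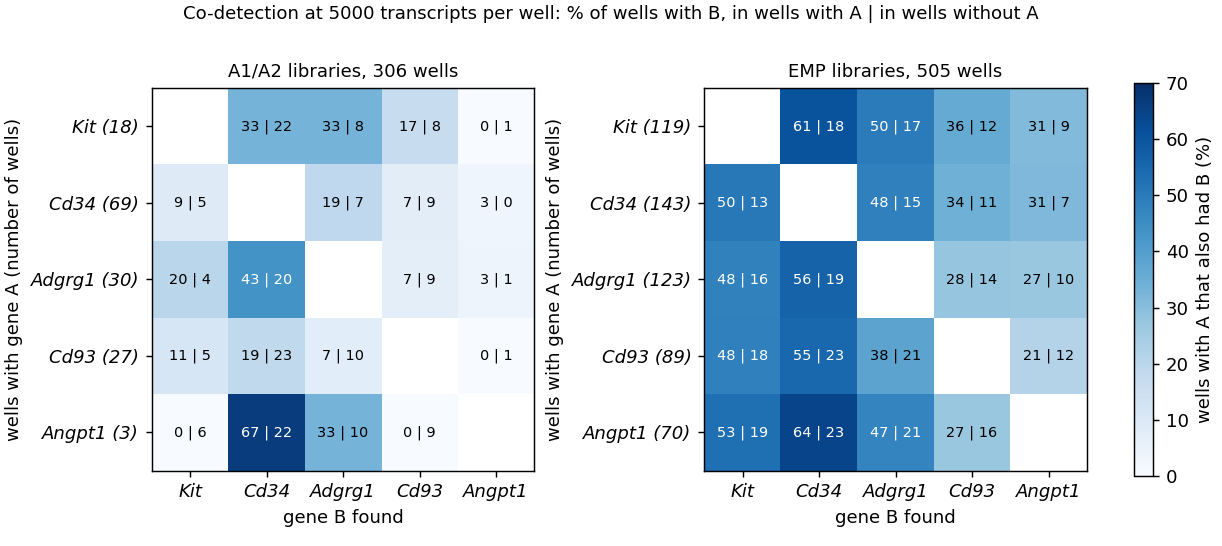
Co-detection at 5000 transcripts per well in 306 A1/A2 and 505 EMP wells: each cell gives the percent of wells with the column gene among wells with the row gene and, after the bar, among wells without it, and shading follows the first. In the EMP libraries every pair is above its second value, led by Angpt1 with Cd34 (64.3% against 22.5%), while in the A1/A2 libraries only 3 wells held Angpt1.

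Other genes found in the members' wells are given at the same depth, with no test of a difference between the kinds of library. Among EMP wells with Kit, 61.3% held Runx1, the factor needed for blood cells to emerge from endothelium, against 19.9% of the others, and Gata2 was in 31.1% and 10.9%. Cd93 wells had the endothelial genes Lyve1 (64.0% against 17.8%) and Plvap (59.6% against 14.9%) more often than the wells of any other member. Adgrg1 wells held Itga2b, the CD41 chain of early progenitors and megakaryocytes, in 30.9% and 8.64%. The mast cell gene Cpa3 was in 1 of the 119 Kit wells.

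Of 69 A1/A2 wells with Cd34, 56.5% held Prtn3, a protease of granulocyte and monocyte precursors, against 15.6% of the others, and in EMP wells Prtn3 was in 18.9% of Cd34 wells and 5.80% of the others. Csf1r, the macrophage growth factor receptor, was in 75.4% and 43.0%, and Cx3cr1, the chemokine receptor that marks A2 cells, in 50.7% and 19.4% of the A1/A2 wells. Among other myeloid genes, Mpo (21.7% and 5.91%) and Spi1 (46.4% and 20.7%) were also found more often in the Cd34 wells. The shares lay closer together for Cd74 (7.25% and 11.4%), Psap (24.6% and 27.0%), Ctss (13.0% and 12.7%) and Mrc1 (20.3% and 17.3%). Runx1 was in 43.5% of Cd34 wells and 19.8% of the others here, and in 60.1% and 17.7% of the EMP wells. Of 27 Cd93 wells, 40.7% held Ctss (10.04% of the others) and 33.3% held Cd74 (8.24%), both genes of antigen-presenting myeloid cells. Of these 27 wells, 12 came from A1/A2 library 3 and 6, 5 and 4 from libraries 1, 2 and 4, and the shares were not split by library. Kit and Cx3cr1 were found together in 4 of 18 Kit wells (22.2%), and Cx3cr1 was in 26.7% of the wells without Kit.

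The genes most like each member were taken from 5774 genes by the correlation of log2(count + 1) over 505 EMP wells at 5000 transcripts, centred per library. These points share wells and libraries, and counts are sparse, so the values are descriptions. Kit was closest to Hmga2 (r = 0.49, 0.38 to 0.70 in single libraries), Ptma, Pabpc1 and Cd34 (0.43), and Cd34 to Hmga2 (0.51), Cd47, Ptma and Celf2. Adgrg1 was closest to Plek (0.50), Ptma, Npm1 and Dnmt3b, and Angpt1 to Hmga2 (0.40), Ptma, Celf2 and Ptpn7. The first 4 for Cd93 were other genes, Mest (0.57), Lyve1 (0.56), Plvap (0.56) and Vim (0.54). Over 306 A1/A2 wells, a calculation added after the data were seen, Cd34 was closest to Ccnd2 (0.43) and Prtn3 (0.41), and Cd93 to Psap (0.49, from -0.13 to 0.77 in single libraries) and Grn (0.47), while no gene reached 0.3 with Kit or Adgrg1.

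The partners of Kit and Angpt1 moved in both directions between the libraries. Of 22 genes of Kit signalling, 9 were higher for A1/A2 and 5 lower (median log2 change 0.26, against -0.02 over all genes), where 17.3% of all genes were higher and 15.4% lower. Vav1, an exchange factor of blood cells (1.83 ± 0.20, edgeR adjusted p = 5.70e-05), Pik3cd, the leukocyte PI3 kinase (1.28 ± 0.15), the kinase Lyn (0.94 ± 0.14) and the phosphatase Inpp5d (1.23 ± 0.19) rose, opposite to the receptor. Of 4 tested genes of the angiopoietin pathway, 3 were lower: the receptors Tie1 (-2.33 ± 0.25) and Tek (-2.63 ± 0.37, edgeR adjusted p = 0.000385) and the phosphatase Ptprb (-2.73 ± 0.54). Dok2, an adaptor, was higher (1.26 ± 0.21). Among 21 other progenitor surface genes, 5 were higher and 8 lower, including Esam (-3.73 ± 0.33) and Emcn (-3.80 ± 0.57), both also endothelial. Of 17 progenitor transcription factors, 4 were higher and 7 lower, with Erg (-4.06 ± 0.38) and Mycn (-3.07 ± 0.22) among the lower.

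Within the EMP libraries, Kit-only wells had 15 of 16 tested progenitor factors higher than wells with neither (median 1.94), where 9.78% of all genes were. They included Myb (2.86 ± 0.31, edgeR adjusted p = 1.35e-06), Meis1 (1.54 ± 0.22) and Etv6 (1.94 ± 0.26). Of 19 Kit signalling genes, 9 were higher and 1 lower, among them the phosphatases Ptpn6 (1.30 ± 0.16) and Inpp5d (2.33 ± 0.39). Of 19 progenitor surface genes, 7 were higher and 2 lower, with the adhesion genes Cd44 (1.91 ± 0.26), Spn (2.67 ± 0.55) and Itga4 (2.47 ± 0.49) among the higher. Of 14 endoderm genes, 13 were lower in Kit-only wells than in wells with neither, and their summed level was 11726 to 23194 CPM and 25624 to 29958 CPM. Without endoderm-rich wells the log2 changes were smaller, 1.97 for Cd34, 1.82 for Adgrg1 and 1.55 for Angpt1, and all 3 were called higher (edgeR adjusted p = 0.000267, 1.17e-07 and 0.0227).

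Where 2.97% of all genes were called higher, endothelial wells without Kit had 12 of 12 tested endothelial genes higher than wells with neither, 3 of 4 angiopoietin pathway genes (Ptprb 4.64 ± 0.53, Tek 4.51 ± 0.58 and Tie1 1.94 ± 0.36) and 1 of 16 progenitor factors. Cdh5 and Plvap, which set these classes, were not among the genes tested. The wells were chosen by these endothelial genes, so the count of the other endothelial genes is no independent result. Kitl, the ligand of Kit, was lower in Kit-only than in endothelial wells (-0.89 ± 0.24, edgeR adjusted p = 0.0262), as was Tek, the receptor for Angpt1 (-2.60 ± 0.48, edgeR adjusted p = 0.00453). Myb was higher in Kit-only wells (2.86 ± 0.41, edgeR adjusted p = 3.18e-05), as were Ikzf1 and Ikzf2, in all 3 of 16 factors, where 1.29% of all genes were higher.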

How the data were processed

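Single-cell libraries were made with mCEL-Seq2 per the labels, which counts random identifiers at the 3' end of transcripts. Each entry deposited by the authors is an estimated count of a gene's transcripts in a well, corrected for collisions among 4096 identifiers (from the values: undoing the correction gave whole numbers in 100% of entries at a tolerance of 1e-06) and not scaled for depth. A deposited series table holds identical values for every kept A1/A2 well. BWA 0.6.2-r126 and Seurat are named, without their roles, per the submitters' processing notes. Genome build, annotation and the rule for shared reads are not stated in those sources.

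Wells with at least 1000 transcripts were kept. Counts were summed per library, or per EMP library and class of wells (at least 5 wells a sum), rounded, and tested with edgeR 4.0.16 (TMM, filterByExpr, robust quasi-likelihood test) under R 4.3.3, calls being those at a Benjamini-Hochberg false discovery rate of 5% over all genes tested. Class fits had library as a block, since each library gives all classes. CPM values are TMM-scaled unless said otherwise. Shares of wells were compared, after thinning with numpy 2.4.6, by permuting the 8 library labels in all 70 ways (exact, two-sided). The labels give no pairing of A1/A2 with EMP libraries beyond the shared number, so the main tests between the groups were unpaired. Same-number correlations of deviations were 0.233, 0.414, -0.022 and 0.228. A1/A2 libraries 1, 2 and 4 correlated best with their own number, and pairing itself was not tested. Alternatives were DESeq2 1.42.0, other filters, depths, well selections and classes, and leaving out each library. Scripts were tested on simulated data. Intervals from counts of 0 (3 wells over the number of wells) cover counting error only. No doublet caller was run, and the labels describe sorted cells.

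The members, gene lists and tests were chosen with earlier results of these data known. Named genes are the 5 members, up to 4 list members with the smallest p in each comparison where past 5% (the text names some of these), and the first 4 genes by correlation of at least 0.3, among genes in at least 10% of wells. Unnamed predicted, ribosomal protein and mitochondrial genes were not named. Companion genes were picked after their values were seen. Promoter windows came from the RefSeq table on GRCm38.p6.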

Additional observations from a re-analysis of the deposited data

Results flagged for a closer look

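In 38 groups of 4 libraries or sums checked for a single far value, 2 were marked, and chance marks about 1 group in 20. Adgrg1 in A1/A2 library 2, at 10.5 CPM, lay far below the other 3 A1/A2 libraries (26.1 to 27.5 CPM), with a gap of 0.914 of the group's range. Cd93 in A1/A2 library 3, at 28.6 CPM, lay far above the other 3 (9.83 to 11.9 CPM), with a gap of 0.889 of the range. Both genes were called lower in the A1/A2 libraries with and without these libraries.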

How the results depend on the processing

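The count of genes called between A1/A2 and EMP libraries (3651) was 131 with wells thinned to 1000 transcripts. The member calls between libraries given above come from full-depth sums and do not cover that setting. With the number shared by libraries as a replicate block it was 4736. Of the 4 A1/A2 libraries, 3 correlated best with the EMP library of their own number. Whether the numbers pair the groups was not tested. With the replicate block in the shares, the differences of Kit (-5.034 points) and Adgrg1 (-5.981 points) had p = 0.125 by an exact sign-flip test, the smallest that 4 pairs allow. With no replicate block in the class fits, counts were 816 for Kit-only against neither (1640 with it), 156 for Kit-only against Cdh5/Plvap-only (298) and 356 for Kit wells with against without Cdh5 or Plvap (742). In that order, wells thinned to 5000 transcripts gave 575, 133 and 33, the class widened by Pecam1 and Kdr gave 11, 87 and 3077, wells other than endoderm-rich gave 964, 605 and 87, and classes by at least 2 transcripts gave 4123, 1338 and 42. Cdh5/Plvap-only against neither (306) gave 625 without a filter and 824 with at least 2 transcripts, and Kit-only against Cdh5/Plvap-only gave 675 without a filter. The cause was not tested.

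Without wells holding Cdh5 or Plvap, the library changes of Cd34 (1.001) and Cd93 (0.274) reversed. So did their shares, at 2.272 points (exact permutation p = 0.229) and 1.079 points (exact permutation p = 0.457), and Kit's share difference was -1.676 points (exact permutation p = 0.143). The widened class reversed Cd34 (-0.674), Adgrg1 (-0.236) and Angpt1 (-0.308) in Kit-only against Cdh5/Plvap-only wells. Adgrg1 in Kit wells with against without Cdh5 or Plvap reversed at 5000 transcripts (-0.115), without endoderm-rich wells (-0.227) and with at least 2 transcripts (-0.142). Shares passed for Cd34 (-5.484 points) and Angpt1 (-3.223) without endoderm-rich wells, each with exact permutation p = 0.0286. Angpt1 passed with the same p at 2000 (-4.372) and 5000 transcripts (-13.17). With no thinning, Cd93 (-24.1) and Angpt1 (-21.6) passed as well (exact permutation p = 0.0286 for both). Depth was not equal in that setting, where the median kept well held 6153 (A1/A2) and 20368 transcripts (EMP). The part of depth in the unthinned differences was not tested. Cd93 did not pass at 2000 or 5000 transcripts (exact permutation p = 0.0571 and 0.0857).

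Leaving out 1 library at a time gave 2596 to 4087 calls between libraries, 906 to 1272 for Kit-only against neither, 128 to 341 for Cdh5/Plvap-only against neither, 120 to 456 for Kit-only against Cdh5/Plvap-only and 191 to 1115 for Kit wells with against without Cdh5 or Plvap. Share differences ran from -5.416 to -4.282 points for Kit and -6.363 to -5.52 for Adgrg1, where 3 against 4 libraries cannot go below an exact p of 0.0571. Of the members' fitted values without 1 library, 92 kept direction and side of the threshold, 5 newly passed and 7 no longer passed. Under the other settings these counts were 150, 13 and 11, and 8 reversed. The endoderm-rich, 2-transcript and Kit wells with against without settings were chosen after seeing the data. Depth limits the shares: at 1000 transcripts Angpt1 rested on 4 A1/A2 wells.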
